A study of Mus musculus with 21 samples.

Results

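The comparison is between mouse macrophages exposed to the fusion protein FcMR for 12 h and the same kind of culture exposed for 4 h, and it describes which genes shut off, persisted or rose over those hours. The 6 libraries were taken by the library number that opens each sample title, 3 labelled FcMR 12 h and 3 labelled FcMR 4 h, out of 21 in the series. FcMR joins the Fc part of human IgG1 to the extracellular region of the mannose receptor (MR), and the series was made to examine what soluble MR does to macrophages. The cells of all 7 groups (untreated cells taken at 0 h, and cells given either FcMR or the isotype control protein and taken at 4, 12 or 24 h) were grown from bone marrow of mice on the C57BL/6J background for 7 days in medium conditioned by a GM-CSF-producing line. The series text calls them MR-deficient, and the labels give no age, sex or protein dose. Total RNA was made into libraries with a TruSeq kit and sequenced as single-end reads. No label says that libraries of a group came from separate mice or cultures, so p-values measure the spread between these libraries, which may be technical. In bulk RNA, fewer cells of a type and less RNA per cell cannot be told apart.

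Macrophages that sense a stimulus switch on genes in waves. Immediate-early transcription factors and short-lived messages for cytokines and chemokines come first, followed by interferon-stimulated genes and by slower acute-phase, lipid and repair genes. The first wave is curtailed by inhibitors that are themselves induced, such as IkB proteins, the ubiquitin editor A20 and SOCS proteins, and by RNA-binding proteins that recognise AU-rich elements in the 3′ UTR of the message.

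Mrc1, which encodes MR, had 0, 11 and 2 counts in the 3 libraries of 4 h and 5, 4 and 1 at 12 h. Over all 21 libraries it had 0 to 11 counts and was too low to test. Library totals were 6306625 to 31978437 counts at 4 h and 11901472 to 21699811 at 12 h. Markers of macrophages (10 genes, among them Lyz2 and Adgre1) summed to 30135 to 30612 CPM (counts scaled to library size with TMM factors) at 4 h and to 21525 to 24745 at 12 h. Most of that sum was Lyz2, at 25676, 25873 and 26267 CPM at 4 h and 20072, 16643 and 17064 CPM at 12 h, and of the 10 genes 4 fell, 2 rose and 4 were held (median -0.14), against 1 lower and 1 higher with 12 h replicate 1 alone. Markers of dendritic cells (10 genes) summed to 2185 to 2554 CPM at 4 h and 2221 to 3202 at 12 h. Markers of neutrophils and their precursors summed to 999 to 1185 CPM at 4 h and 317 to 539.95 at 12 h, and those of mast cells and eosinophils to 442 to 514 and 230.2 to 340.2. Lymphocyte markers summed to 8.85 to 10.1 CPM at 4 h and 5.59 to 7.16 at 12 h, with Cd3e and Cd3g at no more than 4 counts. Stromal and endothelial markers summed to 18.2 to 21.6 and 21.4 to 31.0 CPM, with Col3a1 at 0 counts in each of the 6 libraries. Of 7 lymphocyte markers tested, 2 were called lower at 12 h and 1 higher. Of 6 stromal markers tested, 1 was called lower and 2 higher. Over all genes 18.8% were called lower and 21.5% higher. The markers called higher were the stromal Pdgfrb (1.59 on the log2 scale) and Dcn (2.31) and the lymphocyte marker Klrb1c (2.78). Dcn had 1 to 5 counts a library at 4 h and 7 to 23 at 12 h, and Klrb1c had 0 to 3 and 6 to 17. Of the stromal markers 1 was higher, in place of 2, without 4 h replicate 1 or 2 or 12 h replicate 3. The part of these other cells in the results was not tested.

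Replicate 1 of FcMR 12 h stood apart from the other libraries of 12 h. Its log2 CPM correlated with the other libraries of 12 h at r = 0.958 and 0.957 across genes, against 0.985 between those libraries and 0.975 to 0.986 among the libraries of 4 h. A GC tilt, the mean deviation of the GC-richest 10% of genes minus that of the GC-poorest 10%, was -0.40, -0.21 and -0.55 (log2) at 4 h. At 12 h it was -0.73 in replicate 1, on the side of the 4 h libraries, and 0.70 and 0.80 in replicates 2 and 3. Between 4 h and replicates 2 and 3 of 12 h, time and GC tilt changed together and cannot be fully told apart. By the number in its title, this library and replicate 3 of isotype 4 h stand in each other's place in the order of the groups. The GC tilt of that isotype library was 0.64, against -0.83 and -1.59 in the others of isotype 4 h and 0.58 to 0.82 at isotype 12 h. Il23a was at the level of the labelled group in both, 0.734 CPM and 5.45 CPM. Whether the pair was prepared apart from the rest of their groups was not tested. Results are therefore also given with 12 h represented by replicate 1 alone, without it, and after a correction for GC content, where these end a call or change a direction.

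Of 13468 genes tested, 5426 (40.3%) were called between 12 h and 4 h at a Benjamini-Hochberg adjusted p under 0.05 in edgeR's quasi-likelihood test. Of these, 2534 (18.8%) were lower at 12 h and 2892 (21.5%) were higher. At least 4-fold changes were seen in 191 lower genes (1.42%) and 174 higher genes (1.29%). A further 5140 genes (38.2%) were held within 2-fold, meaning that they were not called and that the 95% interval of their log2 fold change lay between -1 and 1. The median log2 fold change over all genes tested was 0.08. An unnamed value in brackets after a gene is its log2 fold change from 4 to 12 h with FcMR. With replicate 1 as the only library of 12 h, 2969 genes were called, 1334 lower and 1635 higher. The shares of all genes with all libraries, 18.8% lower, 21.5% higher and 38.2% held, are the background for the list counts below. No list was tested as a set. The share of each gene list that fell, held or rose is plotted beside that of all genes.

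**Figure D1:**
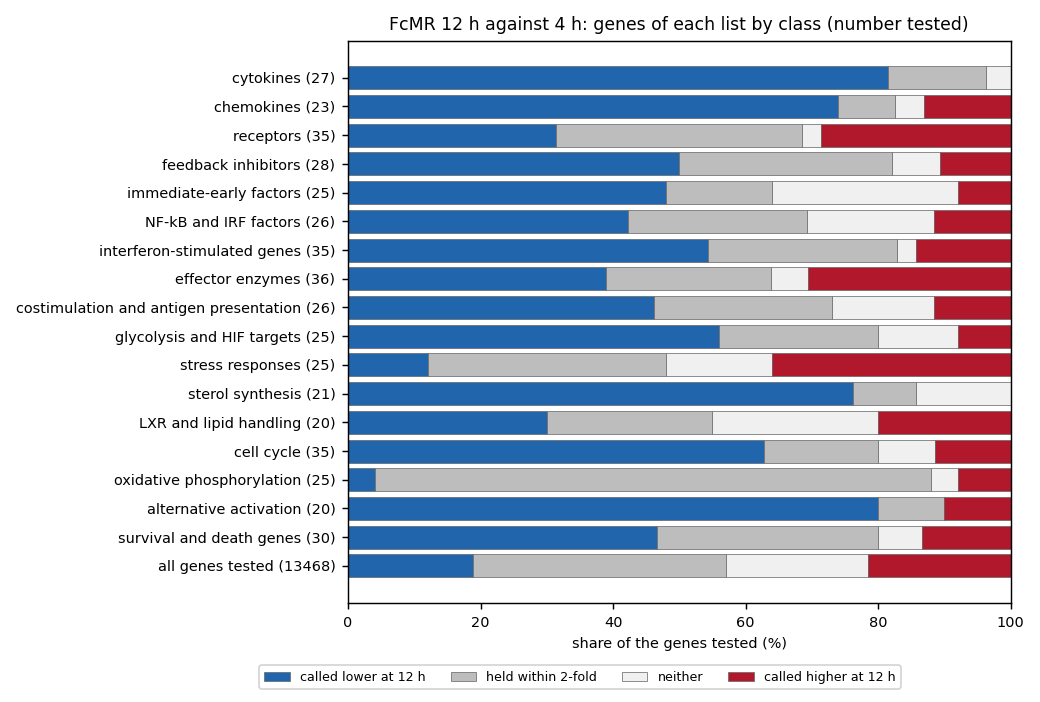
Share of each gene list called lower at 12 h, held within 2-fold, neither, or called higher at 12 h, in percent of the genes tested (their number is given beside the name of each list). Of the 17 gene lists drawn with all libraries, cytokines, alternative activation, sterol synthesis and chemokines have the largest shares called lower, while oxidative phosphorylation has 21 of its 25 genes held.

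Most cytokine genes fell. Of 27 cytokine genes tested, 22 fell (18.8% of all genes did), none rose and 4 were held, with a median log2 fold change of -1.27. After GC correction 23 fell, 2 were held and Il33 was called higher (0.36, adjusted p = 0.046). Il23a, which encodes the p19 subunit of interleukin 23 (chr10:128296139-128298752, GRCm38), was at 74.9, 89.0 and 86.3 CPM at 4 h and 0.734, 0.437 and 0.583 CPM at 12 h. Every library of 4 h was above every library of 12 h, as was the case for 3166 genes (23.5%) in all, and the 12 h level was 143-fold lower. Its log2 fold change of -7.12 (SE 0.25, adjusted p = 1.3e-12) was the lowest among the called protein-coding genes with no overlap whose mean log2 CPM reached 1. Csf2, encoding the growth factor GM-CSF, went from 9.14, 7.52 and 6.89 CPM to 0.147, 0.0873 and 0.194 CPM, a log2 fold change of -5.63 (SE 0.70, adjusted p = 3.5e-06). At 12 h 2 of its 3 libraries were below the level of 3 counts.

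The early cytokine Tnf (chr17:35199381-35202007) was at 5762, 6087 and 5521 CPM at 4 h and 482, 511 and 462 CPM at 12 h. It fell by 3.58 (SE 0.10, adjusted p = 1.3e-12) on the log2 scale, and replicates at each time lay close together. Tnfsf15, which encodes the TNF family member TL1A, was at 1036, 1172 and 1119 CPM at 4 h and 133, 100.1 and 88.2 CPM at 12 h (log2 fold change -3.37, adjusted p = 3.8e-10). Il6 fell from 1341, 1301 and 1299 CPM to 254, 202 and 176 CPM (log2 fold change -2.64, adjusted p = 8.2e-08). Il27, which codes for the p28 subunit of interleukin 27, also fell, by 2.79 (SE 0.31, adjusted p = 3.0e-06) on the log2 scale, while Ebi3, its partner subunit, was held (-0.14, 95% interval -0.60 to 0.32), though called lower after GC correction (-0.52, adjusted p = 1.2e-04). Interferon beta (Ifnb1) had 177 counts summed over the libraries of 4 h. At 12 h it was near the detection limit, with 7 counts summed and at most 3 in a library. After scaling to depth the ratio was 25.1, with an exact interval of 11.9 to 63.3 that covers counting error only.

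Some cytokines declined slowly or not at all. Il1b was at 5596, 6070.2 and 5638 CPM at 4 h and 2865, 2256 and 2062 CPM at 12 h, a log2 fold change of -1.27 (SE 0.14, adjusted p = 2.2e-06), and its mean was still 22.9-fold over untreated cells at 12 h and 1896 CPM at 24 h. Il1a fell further, from 4308, 4012 and 3766 to 1295, 964 and 785 CPM (log2 fold change -1.99, adjusted p = 7.7e-07). Il12b, the p40 subunit shared by interleukins 12 and 23, fell by 1.06 (SE 0.15, adjusted p = 2.7e-05). In contrast, Il12a (p35) was at 18.1, 20.2 and 21.4 CPM at 4 h and 16.1, 18.6 and 19.5 CPM at 12 h and was held (-0.13, 95% interval -0.49 to 0.23). The anti-inflammatory cytokine Il10 was held too (-0.28, 95% interval -0.84 to 0.27).

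By 12 h some of these genes were near their level in untreated cells and others were not. The libraries of 12 h enter this comparison as well as the one with 4 h. At 4 h, 24 of the 27 cytokines were called above untreated cells (22.3% of all genes were), and at 12 h 17 were (24.7% of all genes). The list summed to 1515 to 1748 CPM in untreated cells. With FcMR it summed to 26690 to 27817 CPM at 4 h and 7984 to 10691 at 12 h. With the isotype protein it summed to 5641 to 6303 CPM at 4 h and 2453 to 2560 at 12 h. Il23a at 12 h differed from untreated by a log2 fold change of 0.60 (adjusted p = 0.24) and Csf2 by -0.40 (adjusted p = 0.72), neither called. Tnf remained above untreated by 1.60 (adjusted p = 8.6e-10), Il6 by 6.19 (adjusted p = 5.4e-12) and Il12b by 6.34 (adjusted p = 3.0e-14). The per-library levels of 9 genes over the whole time course show these different slopes.

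**Figure D2:**
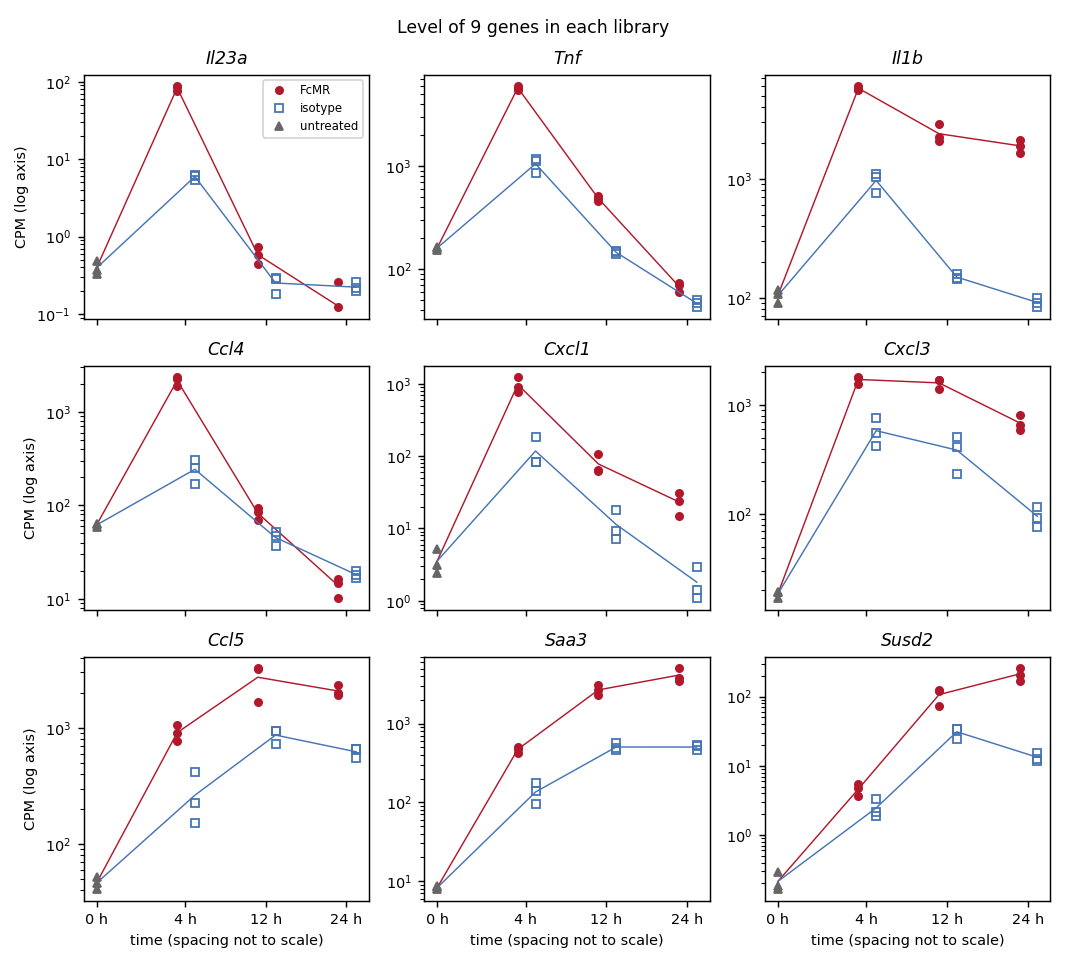
CPM (log axis) of 9 genes in each library of untreated cells and of cells given FcMR or the isotype control, with lines joining group means; 1 FcMR 24 h library with 0 counts of Il23a cannot be drawn. Il23a, Tnf, Ccl4 and Cxcl1 peak at 4 h, Cxcl3 is level between 4 and 12 h, and Ccl5, Saa3 and Susd2 are higher at 12 h than at 4 h.

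Chemokines split into a larger group that fell and a few that held or rose. Of 23 tested, 17 fell, 3 rose and 2 were held, and the median was -1.45, with 1 rising when replicate 1 stood alone for 12 h. Ccl4, which encodes the chemokine MIP-1 beta (chr11:83662584-83664683), was at 2241, 2379 and 1878 CPM at 4 h and 84.8, 93.2 and 69.7 CPM at 12 h, the steepest decline of the list (log2 fold change -4.71, SE 0.19, adjusted p = 8.5e-11). Its neighbour Ccl3 (chr11:83647844-83649355) went from 4220.4, 3946 and 3537 to 366, 355 and 283 CPM (-3.54, adjusted p = 1.3e-12). Cxcl10, the interferon-inducible ligand of CXCR3 (chr5:92346638-92348889), was at 2288, 2248 and 2162 CPM at 4 h and 180.4, 171 and 134 CPM at 12 h (-3.79, adjusted p = 2.1e-11). In none of the 3 genes did the groups overlap, and Ccl4 at 12 h was not called against untreated cells (0.42, adjusted p = 0.083).

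The ligands of the neutrophil receptor CXCR2, which lie close together on chromosome 5, included genes that fell, held and rose. Cxcl1 (chr5:90891241-90893115) fell from 909.6, 768 and 1257 to 62.8, 64.2 and 107 CPM (-3.65, adjusted p = 2.7e-06), and Cxcl2 (chr5:90903871-90905938) from 3156, 3807 and 3742 to 288, 404 and 313 CPM (-3.41, adjusted p = 1.9e-09). Cxcl3 (chr5:90786103-90789600) was at 1575, 1767 and 1829 CPM at 4 h and 1416, 1695 and 1696 CPM at 12 h, and it was held (-0.11, 95% interval -0.61 to 0.40). Cxcl5 rose, from 13.2, 18.4 and 18.6 to 42.1, 51.5 and 57.2 CPM (1.59, adjusted p = 5.5e-04). Whether the changes of these neighbours differ from each other was not tested.

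Promoter sequences are shown for the neighbours Cxcl1 and Cxcl2, which fell, and Cxcl3, which held, for Cxcl10 as a gene that fell and for Isg15, an interferon-stimulated gene that was held. Each covers 250 bases before to 50 bases after the start, 5′ to 3′ on the gene's own strand, from RefSeq (GRCm38.p6). Capitals mark matches to kappaB (the NF-kB motif, GGGA and CC with any 4 bases between them), ISRE (the motif of interferon-activated factors, GAAA and GAAA with any 2 bases between them) or AP-1 (TGANTCA), each searched on both strands, and to TATAAA on the sense strand.
Cxcl1, chr5:90890995-90891294, plus strand: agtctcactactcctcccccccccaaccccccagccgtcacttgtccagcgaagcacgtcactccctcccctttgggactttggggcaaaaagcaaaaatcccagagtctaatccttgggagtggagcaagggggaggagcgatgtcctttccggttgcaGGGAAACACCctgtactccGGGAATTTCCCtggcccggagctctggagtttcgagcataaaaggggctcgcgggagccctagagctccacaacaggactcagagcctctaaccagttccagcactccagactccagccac
Cxcl2, chr5:90903649-90903948, plus strand: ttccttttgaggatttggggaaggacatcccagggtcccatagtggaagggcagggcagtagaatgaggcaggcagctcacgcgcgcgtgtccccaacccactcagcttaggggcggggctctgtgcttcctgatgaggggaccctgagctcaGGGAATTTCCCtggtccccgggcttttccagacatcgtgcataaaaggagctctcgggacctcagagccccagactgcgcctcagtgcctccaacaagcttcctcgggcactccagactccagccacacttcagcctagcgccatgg
Cxcl3, chr5:90785851-90786150, plus strand: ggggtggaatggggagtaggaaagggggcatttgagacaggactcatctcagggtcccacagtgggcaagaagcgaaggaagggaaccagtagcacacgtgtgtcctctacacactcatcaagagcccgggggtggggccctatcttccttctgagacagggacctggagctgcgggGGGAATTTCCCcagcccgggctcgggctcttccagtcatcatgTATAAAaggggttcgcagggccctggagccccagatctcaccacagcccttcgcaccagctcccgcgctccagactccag
Cxcl10, chr5:92348840-92349139, minus strand: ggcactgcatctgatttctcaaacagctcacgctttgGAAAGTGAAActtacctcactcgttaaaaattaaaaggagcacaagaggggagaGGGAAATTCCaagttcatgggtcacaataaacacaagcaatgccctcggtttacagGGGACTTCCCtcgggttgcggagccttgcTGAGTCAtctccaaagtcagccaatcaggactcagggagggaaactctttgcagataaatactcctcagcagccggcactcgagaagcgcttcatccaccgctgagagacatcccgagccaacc
Isg15, chr4:156200769-156201068, minus strand: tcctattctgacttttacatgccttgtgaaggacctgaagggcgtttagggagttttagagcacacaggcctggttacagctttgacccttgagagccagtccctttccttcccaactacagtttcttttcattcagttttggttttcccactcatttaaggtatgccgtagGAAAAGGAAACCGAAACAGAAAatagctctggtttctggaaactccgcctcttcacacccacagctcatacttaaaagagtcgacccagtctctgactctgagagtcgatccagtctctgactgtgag

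The same run GGGAATTTCCC stands in the promoters of Cxcl1, Cxcl2 and Cxcl3, and it holds overlapping kappaB matches on the 2 strands. It begins 71 bases before the start in Cxcl1, 97 in Cxcl2 and 73 in Cxcl3. Cxcl1 has another kappaB match at 90, and Cxcl3 has TATAAA at 30. Cxcl10 has kappaB matches at 159 and 103, an ISRE at 213 and an AP-1 match at 74, and Isg15 has 3 ISRE matches that overlap, at 78, 72 and 66. These are letter matches, not measured binding sites.

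Across the 9819 tested genes with a listed promoter, 26.1% held a kappaB match, 3.47% an ISRE, 5.21% an AP-1 match and 4.52% TATAAA. Among the 136 such genes that fell at least 4-fold, the shares were 31.6%, 8.09%, 10.3% and 13.2%. In the 3985 genes held within 2-fold they were 25.6%, 2.99%, 4.27% and 3.59%. The 125 genes that rose at least 4-fold had 20%, 2.40%, 6.40% and 4.80%. Over all 27025 promoters of the table, tested or not, the shares were 20.5%, 3.49%, 7.93% and 8.88%. Median promoter GC content was 54.2% in the genes that fell most and 61.0% in those held, and its part in the shares was not tested. With replicate 1 alone the order for AP-1 turned, with 8.40% of genes that fell at least 4-fold and 10.6% of those that rose at least 4-fold.

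Matches to the AU-rich nonamer TTATTTATT in the longest annotated 3′ UTR of each gene (GENCODE M21, sense strand) were densest in the genes that fell most. There were 0.173 matches per kb in the 165 genes that fell at least 4-fold, 0.0768 in genes that fell less and 0.0653 in genes held within 2-fold. The density was 0.0562 in genes that rose under 4-fold, 0.0532 in genes that rose at least 4-fold and 0.0685 over all 11829 genes with a 3′ UTR. At least 1 match was present in 20 of the 165 genes (12.1%), against 10.6% of genes that fell less, 8.64% of the held genes and 8.30% of all. In 9 of those 20 genes there were 2 or more matches, which weigh on the density. Median 3′ UTR GC content was 42.3% in the genes that fell most, 43.4% in those held and 49.7% in those that rose at least 4-fold. Median 3′ UTR length was 828, 1267 and 901 bases. The part of either in the densities was not tested. After GC correction the order of the rising classes turned, with 0.0636 for at least 4-fold and 0.0605 for less. Genes that fell most had 0.161 there. For 5 messages named above, 1 match (capitals) is shown with 10 bases on each side, to set those that fell beside Cxcl3, which held.
Tnf, chr17:35199689-35199717, minus strand: tttgcacttaTTATTTATTatttatttat
Csf2, chr11:54247329-54247357, minus strand: ttttaaatatTTATTTATTtatttattta
Cxcl1, chr5:90892615-90892643, plus strand: atttatgtatTTATTTATTccacaaagtg
Cxcl2, chr5:90905316-90905344, plus strand: gagagttcacTTATTTATTtatctatgta
Cxcl3, chr5:90787867-90787895, plus strand: ttatcagttgTTATTTATTgaaatggtct

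Overlapping matches were counted, which gave Tnf 5, Csf2 and Cxcl2 4 each, Cxcl1 2 and Cxcl3 1. Il23a had 1 match, and so did Acod1, which was held. No match to these 9 letters was present in the 3′ UTR of Ccl3, Ccl4, Nfkbiz, Il6 or Il1a, 5 messages that fell. The class shares of the 3 factor motifs and the nonamer are plotted together.

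**Figure D3:**
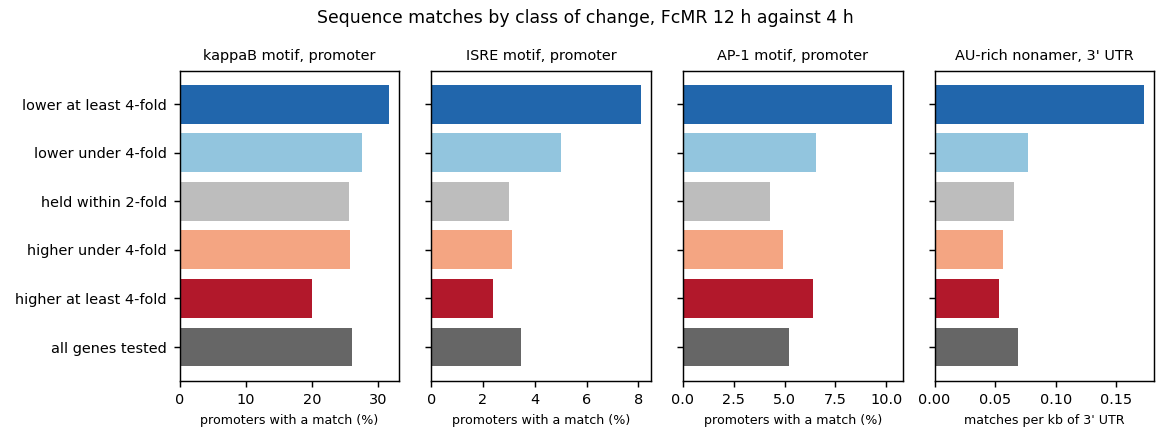
Share of promoters with a match to the kappaB, ISRE or AP-1 motif (percent) and matches to the AU-rich nonamer per kb of 3′ UTR, by class of change from 4 to 12 h with FcMR. Genes that fell at least 4-fold have the longest bar in each panel, 31.6%, 8.09%, 10.3% and 0.173 per kb.

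Ccl5, which encodes the chemokine RANTES, rose. It was at 773, 1050.2 and 905 CPM at 4 h and 1685, 3301 and 3203 CPM at 12 h, and every library of 12 h was above every library of 4 h, as for 3529 genes (26.2%). The log2 fold change was 1.59 (SE 0.28, adjusted p = 2.8e-04), but replicate 1 was the lowest library of 12 h, and with it alone the rise was not called (0.92, adjusted p = 0.058). Pf4 was called higher at 0.92 (adjusted p = 0.045), but had -0.05 with replicate 1 alone and was not called without 4 h replicate 1, 2 or 3 or 12 h replicate 2 or 3 (adjusted p = 0.059 to 0.15). Ccl22, a CCR4 ligand, was called slightly lower (-0.39, adjusted p = 0.0068), though not without 4 h replicate 2 or 12 h replicate 3 (adjusted p = 0.057 to 0.059), while Ccl17, another CCR4 ligand, fell from 1128, 1259 and 865 to 349, 358 and 265 CPM (-1.74, adjusted p = 1.8e-06).

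Receptors showed no common direction. Of 35 receptor genes tested, 11 fell (18.8% of all genes did), 10 rose (21.5%) and 13 were held, with a median of 0.07. The median became -0.17 after the correction for GC content. With replicate 1 alone 5 fell. Il1r2, the decoy receptor for interleukin 1, fell from 46.3, 46.4 and 42.5 to 11.9, 10.3 and 10.2 CPM (-2.07, adjusted p = 1.2e-08). Over the same hours Il1r1, the signalling receptor, rose from 2.05, 1.54 and 1.49 to 8.15, 5.33 and 5.73 CPM (1.90, adjusted p = 2.4e-05). The Toll-like receptor partners Tlr1 (1.82, adjusted p = 3.3e-08) and Tlr6 (0.56, adjusted p = 0.0036; with the authors' factors 0.45, adjusted p = 0.062) rose, whereas Tlr2, with which both pair, fell (-0.58, adjusted p = 1.0e-04). Tlr9, the endosomal DNA sensor, fell (-1.41, adjusted p = 2.4e-05), and Tlr4, the lipopolysaccharide receptor, was held (0.17, 95% interval -0.26 to 0.61), though called with a replicate block and GC correction (0.27, adjusted p = 0.029).

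Chemokine receptors changed in both directions. Ccr2 was at 31.7, 19.9 and 18.4 CPM at 4 h and 16.1, 8.64 and 7.09 CPM at 12 h and was called lower (-1.16, adjusted p = 0.014), but not with replicate 1 alone (-0.52, adjusted p = 0.48) and not without 4 h replicate 1 or 12 h replicate 2 or 3 (adjusted p = 0.064 to 0.096). Ccr7, which guides cells to lymph nodes, rose (0.53, adjusted p = 0.0063; with replicate 1 alone 0.32, adjusted p = 0.25). The growth factor receptors Csf3r (1.46, adjusted p = 4.9e-08) and Csf1r (0.54, adjusted p = 4.7e-04; with replicate 1 alone 0.39, adjusted p = 0.051) rose, and Csf2rb, the shared chain of the GM-CSF receptor, was held at 1931, 1926 and 1717 CPM at 4 h and 1624, 1838 and 1743 CPM at 12 h, though called after GC correction (-0.29, adjusted p = 0.024). Tnfrsf1b, which encodes TNF receptor 2, was held as its ligand gene fell (0.07, 95% interval -0.15 to 0.30).

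In the list of inhibitors of NF-kB, MAP kinase and cytokine signalling, 14 of 28 tested fell, 3 rose and 9 were held (median -0.66). Nfkbiz encodes the inducible nuclear protein IkB-zeta (chr16:55811375-55838899). It is in the list as a member of the IkB family, and whether it acts as an inhibitor here was not tested. It was at 544, 591 and 553 CPM at 4 h and 46.7, 48.8 and 40.3 CPM at 12 h (-3.64, SE 0.11, adjusted p = 1.4e-12). Tnfaip3, which encodes A20, was at 1382, 1578 and 1564 CPM at 4 h and 489.7, 492 and 473 CPM at 12 h (-1.64, adjusted p = 1.2e-10). In both genes every library of 4 h was above every library of 12 h.

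Cish, a SOCS family member, fell from 83.3, 94.5 and 74.2 to 9.83, 13.01 and 12.7 CPM (-2.83, adjusted p = 1.9e-08), and Socs3 was called lower (-0.99, adjusted p = 0.013). Nfkbia, encoding IkB-alpha, fell (-1.02, adjusted p = 1.5e-04), as did Zc3h12a, which encodes the RNase Regnase-1 (-1.14, adjusted p = 0.028). Socs3 was not called without 12 h replicate 1 (adjusted p = 0.053), and Zc3h12a was not called without 4 h replicate 2 or 12 h replicate 1 (adjusted p = 0.061 to 0.097). The RNA-binding protein gene Zfp36, whose product tristetraprolin binds AU-rich elements, was held (-0.37, 95% interval -0.83 to 0.09), though called with replicate 1 alone (-0.85, adjusted p = 0.045), and so were the phosphatase gene Dusp1 (0.15, 95% interval -0.09 to 0.39) and Irak3 (0.03, 95% interval -0.15 to 0.20). Dusp6, the ERK phosphatase, rose from 12.7, 8.01 and 10.8 to 24.4, 25.8 and 27.5 CPM (1.32, adjusted p = 2.4e-06). Zfp36l2, a relative of Zfp36, rose too (0.64, adjusted p = 7.4e-05; after GC correction 0.45, adjusted p = 0.067).

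Transcription factors of the early response declined in part. Of 25 immediate-early genes, 12 fell, 2 rose and 4 were held (median -0.56). After GC correction 19 fell. The number that rose was 6 without both libraries out of title order, and 1 without 4 h replicate 3 or without 12 h replicate 2 or 3. Nr4a3, an orphan nuclear receptor, was at 477, 483 and 398 CPM at 4 h and 93.1, 80.8 and 70.5 CPM at 12 h (-2.48, adjusted p = 1.8e-09). Egr1 fell from 21.96, 21.8 and 22.7 to 4.62, 6.37 and 5.59 CPM (-2.003, adjusted p = 5.3e-07). Myc fell (-1.40, adjusted p = 8.2e-04), Fos was held (-0.18, 95% interval -0.56 to 0.20; after GC correction -0.42, adjusted p = 0.0060) and Nr4a2 rose (1.26, adjusted p = 1.2e-04). Fosb had 55 counts in all at 4 h and 2 at 12 h, a ratio of 27.3 (exact interval 7.20 to 231).

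Among 26 NF-kB, STAT and IRF genes, 11 fell, 3 rose and 7 were held (median -0.29). After GC correction 18 fell, and 5 rose without 12 h replicate 1 against 1 with it alone. Rel, which encodes the NF-kB subunit c-Rel, fell from 427, 449 and 446 to 176, 132 and 117 CPM (-1.64, adjusted p = 9.8e-07). Nfkb1, encoding p105 and p50, fell (-1.35, adjusted p = 8.2e-08), while Relb was held (-0.23, 95% interval -0.81 to 0.36; after GC correction -0.78, adjusted p = 6.2e-07). Irf1 (-1.55, adjusted p = 4.5e-09) and Irf2 (-1.39, adjusted p = 5.7e-10) fell. Stat4 rose (1.20, adjusted p = 5.1e-05), and Irf7, the interferon-inducible amplifier, rose from 365, 389.9 and 349 to 488, 886 and 871 CPM (1.02, adjusted p = 0.0051) but was not called with replicate 1 alone (0.43, adjusted p = 0.39). Batf rose by 1.02 (adjusted p = 0.0089) with the same exception (0.48, adjusted p = 0.40).

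Interferon-stimulated genes stayed induced even where they fell. All 35 were called above untreated cells at 4 h and all 35 at 12 h, with median log2 fold changes over untreated of 4.90 and 4.26 (all genes tested: -0.11 and 0.01). The list summed to 736 to 985 CPM in untreated cells. With FcMR it summed to 29288 to 30256 CPM at 4 h and 15829 to 18753 at 12 h. The isotype protein also raised it, to 12603 to 13625 CPM at 4 h and 9297 to 9942 at 12 h. In 3 of the 35 the change from 4 to 12 h was called lower with FcMR than with the isotype protein (2.75% of all genes). Between the times 19 fell with FcMR, 5 rose and 10 were held (median -0.64). The number that rose was 2 without 4 h replicate 2 and with 12 h replicate 1 alone, and 3 without 4 h replicate 1 or 3 or without 12 h replicate 1. Cmpk2 was at 1354, 1311 and 1344 CPM at 4 h and 366, 309 and 263 CPM at 12 h (-2.096, adjusted p = 4.5e-09), and Rsad2, which encodes the antiviral enzyme viperin and lies next to it, at 5312, 5408 and 5556 CPM at 4 h and 1991, 1565 and 1338 CPM at 12 h (-1.73, adjusted p = 5.0e-07). Ifit1 fell from 2381, 2252 and 2436 to 1184, 928 and 905 CPM (-1.23, adjusted p = 1.3e-05).

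Within the same programme, other members were level or higher at 12 h. Isg15, the ubiquitin-like modifier, was at 950.4, 1157 and 1077 CPM at 4 h and 747, 976 and 913 CPM at 12 h and was held (-0.27, 95% interval -0.73 to 0.19), though called lower after GC correction (-0.40, adjusted p = 0.038). Oasl2 was held in a narrow interval (0.04, 95% interval -0.14 to 0.23), as was Zbp1 (0.20, 95% interval -0.05 to 0.45). Ifi44 rose from 64.1, 58.2 and 60.4 to 188, 127 and 113 CPM (1.23, adjusted p = 3.1e-04). Bst2, which encodes the virus tether tetherin, rose from 216, 267 and 269 to 480.4, 871 and 926 CPM (1.60, adjusted p = 3.0e-04), with 0.97 (adjusted p = 0.054) in replicate 1 alone. Near-identical members such as Ifit3 and Ifit3b, or Oas1a and Oas1g, can exchange reads in estimated counts and are uncertain one by one.

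Effector enzymes and secreted proteins included genes of both directions. Of 36 tested, 14 fell (18.8% of all genes did), 11 rose (21.5%) and 9 were held (median -0.20). In prostaglandin synthesis, Ptgs2, which encodes cyclooxygenase 2 (chr1:150100031-150108227), was at 2280.5, 2470.3 and 2445 CPM at 4 h and 353, 317 and 253 CPM at 12 h (-2.96, SE 0.18, adjusted p = 2.8e-09). Ptges, which encodes the enzyme after it in the pathway to prostaglandin E2, was at 38.2, 43.7 and 41.0 CPM at 4 h and 143, 178 and 206 CPM at 12 h and rose (2.100, SE 0.19, adjusted p = 1.9e-07). Pla2g4a, the phospholipase that releases arachidonic acid, rose by 0.91 (adjusted p = 1.1e-04). The leukotriene genes Alox5 (-2.11, adjusted p = 2.1e-06) and Alox5ap (-0.80, adjusted p = 6.5e-05) fell.

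Acute-phase and complement genes were among those that rose. Saa3, serum amyloid A3, was at 428, 504 and 479 CPM at 4 h and 2311, 2664 and 3055 CPM at 12 h (2.51, SE 0.18, adjusted p = 1.6e-08) and its mean reached 4129 CPM at 24 h. Cfb, complement factor B, was at 729, 679.99 and 697 CPM at 4 h and 3113, 2915 and 3163 CPM at 12 h (2.13, SE 0.12, adjusted p = 1.5e-09), while C3 was held (-0.08, 95% interval -0.26 to 0.11; with a replicate block and GC correction -0.17, adjusted p = 0.034). Hp, encoding haptoglobin (1.54, adjusted p = 1.1e-04), the protease inhibitor gene Slpi (1.37, adjusted p = 0.0011) and the scavenger receptor gene Marco (1.85, adjusted p = 2.5e-04) rose as well, Slpi not in replicate 1 alone (0.96, adjusted p = 0.077).

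The nitric oxide synthase gene Nos2 fell from 207, 258 and 218 to 67.7, 85.0 and 70.6 CPM (-1.61, adjusted p = 2.5e-05). Acod1, which makes itaconate (chr14:103046977-103056573), was at 5424, 5551 and 5360.5 CPM at 4 h and 4809, 4665 and 4662 CPM at 12 h. The groups of Acod1 did not overlap, but the difference was not called and its interval was narrow (-0.21, 95% interval -0.40 to -0.02). In DESeq2 it was called lower, at -0.27 (adjusted p = 0.0078). Sod2, the mitochondrial superoxide dismutase, rose (0.52, adjusted p = 9.4e-05). Clec4e, the Mincle receptor, was held (0.33, 95% interval 0.03 to 0.63), although it was called with replicate 1 alone (0.61, adjusted p = 0.027) and after GC correction (0.40, adjusted p = 6.2e-05).

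Among costimulation and antigen presentation genes, 12 of 26 were lower (18.8% of all genes), 3 were higher (21.5%) and 7 were held (median -0.43). The number higher was 0 without 4 h replicate 3 and with 12 h replicate 1 alone, 1 without 12 h replicate 3, 5 without 12 h replicate 1 and 8 without both libraries out of title order. Cd40 was at 1002, 1340.01 and 1247 CPM at 4 h and 546, 737 and 660.2 CPM at 12 h (-0.88, adjusted p = 0.0011), and Cd80 (-0.88, adjusted p = 3.7e-04; with replicate 1 alone -0.65, adjusted p = 0.071) and Cd83 (-1.07, adjusted p = 1.3e-05) fell, while Cd86 was held (-0.32, 95% interval -0.63 to -0.02; without 12 h replicate 1 -0.43, adjusted p = 0.038). The inhibitory ligand genes Cd274 (-0.58, adjusted p = 9.9e-05; with replicate 1 alone -0.39, adjusted p = 0.054) and Pdcd1lg2 (-1.20, adjusted p = 9.4e-06) fell. The class II genes H2-Aa (-0.65, adjusted p = 2.9e-05) and Cd74 (-0.73, adjusted p = 0.0083) fell. Tapbp, which encodes tapasin, was called higher at 0.72 (adjusted p = 0.014), and so was the immunoproteasome gene Psmb8 at 0.72 (adjusted p = 0.018). With replicate 1 alone they had 0.18 (adjusted p = 0.68) and 0.39 (adjusted p = 0.41). Tapbp was not called without 4 h replicate 3 or 12 h replicate 2 (adjusted p = 0.054 to 0.055) or after GC correction (0.14, adjusted p = 0.50), and Psmb8 was not called without 4 h replicate 1 or 3 or 12 h replicate 3 (adjusted p = 0.051 to 0.070).

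Hypoxia-response and glycolysis genes were lower in 14 of 25, higher in 2 and held in 6 (median -0.60), with 1 higher when replicate 1 stood alone. Vegfa fell from 23.3, 21.3 and 24.0 to 5.65, 8.64 and 8.55 CPM (-1.58, adjusted p = 1.0e-04) and Adm, encoding adrenomedullin, by 2.19 (SE 0.43, adjusted p = 6.2e-04). Of the glycolytic genes, Pfkp (-1.11, adjusted p = 3.8e-09), Hk2 (-0.82, adjusted p = 2.6e-05) and Ldha (-0.60, adjusted p = 0.0015) fell, and Pkm was held (0.03, 95% interval -0.49 to 0.55). Pfkfb3, which makes the activator of phosphofructokinase, rose from 218, 261 and 258 to 493, 477 and 459 CPM (0.95, adjusted p = 2.9e-07). In oxidative phosphorylation 21 of 25 genes were held, 1 was lower and 2 were higher, with a median of -0.00. The number lower was 0 to 4 and the number higher 1 to 5 in the alternatives. Sdha, a subunit of succinate dehydrogenase, had -0.00, 95% interval -0.14 to 0.13.

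Of 25 stress-response genes, 9 rose (21.5% of all genes did), 3 fell (18.8%) and 9 were held (median 0.27). With replicate 1 alone 3 rose, and after GC correction 6 fell. Hmox1, heme oxygenase 1, rose from 1016, 1024 and 967 to 1640.2, 2324 and 2249 CPM (1.05, adjusted p = 1.7e-04). Osgin1 (1.798, adjusted p = 0.015) and Ddit3 (1.23, adjusted p = 0.0016) rose, neither called in replicate 1 alone (0.72, adjusted p = 0.53 and 0.70, adjusted p = 0.16). Osgin1 was also not called without 4 h replicate 1 or 12 h replicate 3 (adjusted p = 0.054 to 0.055). Slc7a11, the cystine transporter (-0.77, adjusted p = 1.1e-04), and Txnrd1 (-0.55, adjusted p = 3.3e-04) fell, and their fellow NRF2 target Nqo1 was held (-0.09, 95% interval -0.34 to 0.17).

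Most genes of sterol synthesis fell. Of 21 genes, 16 fell, none rose and 2 were held, with a median of -1.19, and 16 or more fell in each alternative analysis. Hmgcs1 was at 597, 575 and 596 CPM at 4 h and 208, 177 and 178 CPM at 12 h (-1.65, adjusted p = 1.5e-09) and Insig1, which restrains the activation of sterol synthesis genes, at 244, 247 and 244 CPM at 4 h and 114, 105 and 103 CPM at 12 h (-1.19, adjusted p = 1.1e-08). None of their groups overlapped. Hsd17b7 had the lowest value of the list, -1.79 (adjusted p = 2.3e-10). Against untreated cells, 5 of the 21 genes were called lower at 4 h (25.9% of all genes were) and 16 at 12 h (23.4%).

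Over the same hours Nr1h3, which encodes the oxysterol receptor LXR-alpha, was at 13.7, 11.4 and 12.1 CPM at 4 h and 42.1, 67.9 and 70.0 CPM at 12 h (2.28, SE 0.29, adjusted p = 1.1e-05). Abca1, its target and a cholesterol exporter, went from 129.7, 137 and 151 to 397, 350.4 and 382 CPM (1.44, adjusted p = 1.4e-08), and a further target, Mylip, rose by 0.33 (adjusted p = 0.0040), though not with replicate 1 alone (0.32, adjusted p = 0.062). Abcg1 was held (0.24, 95% interval -0.12 to 0.60). Across the list of LXR and lipid genes, 6 of 20 fell (18.8% of all genes did), 4 rose and 5 were held (median -0.12). The share that rose, 20%, was near the 21.5% of all genes. After GC correction 10 fell. Those that fell included the fatty acid genes Fabp4 (-1.29, adjusted p = 3.1e-07), Scd1 (-0.76, adjusted p = 4.1e-06) and Pparg (-1.24, adjusted p = 1.6e-05).

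Cell cycle genes fell in 22 of 35, rose in 4 and were held in 6 (median -1.05). With replicate 1 as the only library of 12 h, 9 fell and 1 rose, and 2 rose without 4 h replicate 3. The mitotic gene Ube2c was at 9.35, 8.76 and 4.66 CPM at 4 h and 1.61, 0.698 and 1.12 CPM at 12 h (-2.75, adjusted p = 3.4e-05) and Ccnb2 at 10.8, 6.39 and 4.84 CPM at 4 h and 1.54, 1.75 and 0.583 CPM at 12 h (-2.59, adjusted p = 6.5e-05). Cdkn1a, the inhibitor p21, fell from 1481, 1709.6 and 1492 to 340.1, 412 and 371 CPM (-2.06, adjusted p = 8.3e-10). Ccnd1, cyclin D1, also fell (-1.805, adjusted p = 4.3e-06). Mcm3, a replication licensing gene, was held (0.16, 95% interval -0.19 to 0.50).

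Survival and cell death genes fell in 14 of 30 (18.8% of all genes did), rose in 4 (21.5%) and were held in 10 (median -0.30). With replicate 1 alone 6 fell, 8 rose after GC correction, and 2 rose without 4 h replicate 2 or 3. Nlrp3, the inflammasome sensor, fell from 585, 623 and 629.8 to 182, 183 and 193 CPM (-1.72, adjusted p = 2.5e-10), whereas its adaptor Pycard (0.95, adjusted p = 1.5e-04) and effector Casp1 (0.61, adjusted p = 0.010) rose. Pro-apoptotic Bcl2l11 (-1.49, adjusted p = 4.5e-11) and anti-apoptotic Bcl2l1 (-1.43, adjusted p = 6.3e-06) both fell, and Mcl1 was held (-0.14, 95% interval -0.43 to 0.15). Reads of Bcl2a1a, Bcl2a1b and Bcl2a1d, which are near copies and were all called lower, may be shared between them.

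Genes of alternative activation, the state that interleukin 4 induces, fell in 16 of 20, rose in 2 and were held in 2 (median -0.93). Replicate 1 alone called 8 lower and 1 higher. The number higher was also 1 when any library other than 12 h replicate 1 was left out. Clec10a went from 8.22, 11.5 and 12.7 to 2.06, 1.14 and 2.09 CPM (-2.56, adjusted p = 1.7e-07) and its neighbour Mgl2, another lectin, from 589, 622 and 594 to 188, 202 and 221 CPM (-1.56, adjusted p = 2.7e-09). F13a1, a coagulation factor subunit of resident macrophages, fell (-2.32, adjusted p = 3.2e-08), and Cd209a had 45 counts in all at 4 h and 4 at 12 h, a ratio of 11.2 (exact interval 4.07 to 42.7). Arg1, the arginase gene, was at 2.76, 2.67 and 1.30 CPM at 4 h and 0.954, 1.40 and 0.971 CPM at 12 h (-1.13, adjusted p = 0.026), and was not called without 4 h replicate 1 or 2 or 12 h replicate 1 or 3 (adjusted p = 0.069 to 0.10) or with replicate 1 alone (-1.30, adjusted p = 0.16).

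In the list for neutrophils and their precursors, 10 of 11 fell (18.8% of all genes did) and none rose (median -2.12, with 12 h replicate 1 alone -1.72). With the isotype protein 8 of the 11 also fell (median -1.51), and no member was called as different in its change between FcMR and the isotype. Ngp was at 206, 159.6 and 178 CPM at 4 h and 54.0, 35.4 and 35.2 CPM at 12 h (-2.12, adjusted p = 1.4e-06) and S100a9 at 511, 453 and 557 CPM at 4 h and 210.3, 112 and 141 CPM at 12 h (-1.72, adjusted p = 2.8e-06). Retnlg went from 91 counts in all to 7, a ratio of 12.9 (6.01 to 33.0). Mast cell and eosinophil markers fell in 8 of 9 (median -0.998, with 12 h replicate 1 alone -0.83). The number lower was 5 without 4 h replicate 1 or 2 or 12 h replicate 2, and 4 without 12 h replicate 3. With the isotype protein 5 of the 9 fell (median -0.96), and in 1 the change was called lower with FcMR than with the isotype protein. Adgre1, which encodes the macrophage protein F4/80, rose from 299.9, 329 and 332 to 1127, 871 and 907 CPM (1.60, adjusted p = 3.9e-08), while Lyz2 fell (-0.53, adjusted p = 7.6e-05; with replicate 1 alone -0.34, adjusted p = 0.048). Of 10 dendritic cell markers, 5 fell (18.8% of all genes did), 3 rose (21.5%) and none was held (median -0.33). Only 3 fell without 4 h replicate 1 or 12 h replicate 2 or 3, and the median was -0.18 with 12 h replicate 1 alone. Flt3 (1.15, adjusted p = 4.4e-06) was among those that rose. Zbtb46 was among those that fell (-0.48, adjusted p = 9.8e-04) and had -0.37 with replicate 1 alone.

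**Figure D4:**
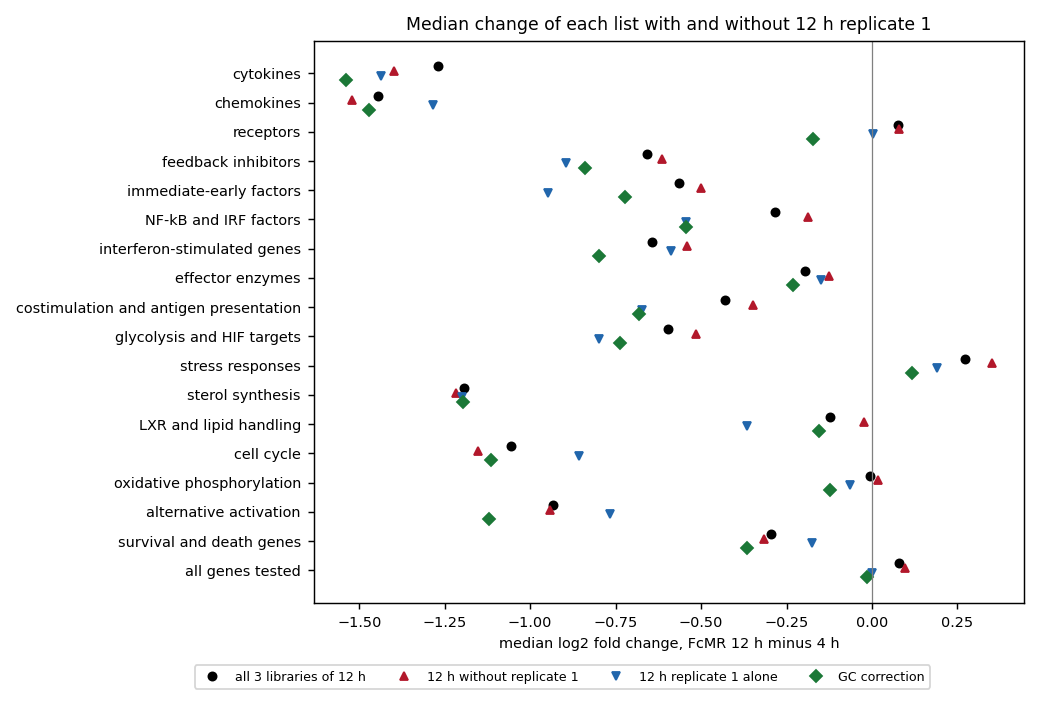
Median log2 fold change of each list (FcMR 12 h minus 4 h) with all 3 libraries of 12 h, without replicate 1, with replicate 1 alone, and after GC correction. Cytokines, chemokines, sterol synthesis, cell cycle and alternative activation lie left of 0 in all 4 settings, and the receptor median moves from 0.07 to -0.17 with GC correction.

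The 10 genes that fell most, among those whose mean log2 CPM reached 1, included some that were not called higher at 4 h than in untreated cells. Emp1, which encodes an epithelial membrane protein (chr6:135362545-135383173), was at 119, 120.1 and 143 CPM at 4 h and 12.04, 9.52 and 10.7 CPM at 12 h against a mean of 364 CPM in untreated cells. Dscam, a cell adhesion molecule gene (chr16:96590840-97170752), was at 22.8, 22.004 and 21.2 CPM at 4 h and 1.83, 1.22 and 1.41 CPM at 12 h and at 21.6 CPM in untreated cells. Asgr2, an asialoglycoprotein receptor subunit (chr11:70092644-70106187), was at 9.63, 9.07 and 7.83 CPM at 4 h and 0.514, 1.05 and 0.680 CPM at 12 h and at 63.7 CPM in untreated cells. Their log2 fold changes from 4 to 12 h were -3.56 (SE 0.13), -3.88 (SE 0.15) and -3.60 (SE 0.25), with adjusted p-values of 8.8e-12, 8.8e-12 and 4.5e-09. Ccl1, which encodes a CCR8 ligand and is not in the chemokine list, had -4.48 (SE 0.41, adjusted p = 2.1e-07).

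Among the 10 genes that rose most by the same rule, Susd2, which encodes a sushi-domain membrane protein (chr10:75636706-75644008), was at 4.75, 5.42 and 3.73 CPM at 4 h and 73.1, 122 and 126 CPM at 12 h (4.48, SE 0.23, adjusted p = 5.7e-10), 23.1-fold higher. Antxr1, an anthrax toxin receptor gene (chr6:87133853-87335821), was at 0.425, 0.451 and 0.373 CPM at 4 h and 9.25, 8.21 and 6.12 CPM at 12 h (4.16, adjusted p = 4.6e-07). Cyp1b1, a cytochrome P450 gene (chr17:79701537-79715061), was at 3.90, 3.69 and 2.61 CPM at 4 h and 28.1, 28.6 and 32.0 CPM at 12 h (3.07, adjusted p = 1.2e-08) and its mean at 24 h was 67.6 CPM. All 3 were also called higher with replicate 1 alone.

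The other genes of this rank were Mfap3l (2.78), the receptor genes Gpr176 (2.90) and Gpr31b (2.98), the glycine transporter gene Slc6a9 (3.29), Fbxo31 (3.19), Tchh (3.06) and C130050O18Rik (3.71), each value a log2 fold change. In several of them replicate 1 of 12 h was the lowest library, as in Slc6a9 (2.86, 6.98 and 8.01 CPM) and Tchh (4.92, 11.9 and 11.3 CPM). Of the 118 named genes that were tested, 46 overlap another annotated gene, among them Dscam, Antxr1 and Gpr176, and the strand used in counting is not given in the sources used here.

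In several genes replicate 1 of 12 h lay on the other side of 4 h from replicates 2 and 3. Junb, an AP-1 factor gene, was at 48.6, 51.5 and 37.5 CPM at 4 h and 13.6, 156 and 177 CPM at 12 h, so that 12 h was below 4 h in replicate 1 and above it in replicates 2 and 3 (log2 fold change 1.33, adjusted p = 0.27). The same split was seen for the metallothionein gene Mt1, at 82.2, 128 and 104 CPM at 4 h and 36.5, 223 and 231 CPM at 12 h (0.64, adjusted p = 0.49), for Jund (9.03, 32.0 and 35.6 CPM at 12 h) and for Nr1h2, which encodes LXR-beta (16.5, 78.7 and 76.2 CPM at 12 h). None of these was called or held.

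Whether the fall or rise was particular to FcMR was tested as the change from 4 to 12 h with FcMR minus that with the isotype control protein. In this contrast 726 genes were called (5.39%), 370 with a lower change under FcMR (2.75%) and 356 with a higher one (2.64%). The number was 349 to 1903 in the alternative analyses. Isotype-treated cells also carried 2594 genes lower and 2143 higher at 12 h than at 4 h, and the median change of the cytokine list was -1.42 in them and of the sterol list -1.22.

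Several of the early genes fell further with FcMR. For Il23a the isotype libraries were at 6.32, 6.13 and 5.45 CPM at 4 h and 0.280, 0.293 and 0.182 CPM at 12 h, and the difference in change was -2.40 (SE 0.39, adjusted p = 0.0024). Ccl4 went from 253, 171 and 305 to 51.9, 46.9 and 37.0 CPM with the isotype protein (difference -2.29, SE 0.27, adjusted p = 1.3e-04). The differences for Ccl3 (-1.19, SE 0.15, adjusted p = 2.1e-04), Ccl2 (-1.58, SE 0.34, adjusted p = 0.014) and Tnf (-0.72, SE 0.15, adjusted p = 0.0092) were in the same direction. Il23a was not called in this contrast after thinning (-2.53, adjusted p = 0.26), nor was Ccl2 with replicate 1 alone (-1.36, adjusted p = 0.095). Il1b went the other way: with the isotype protein it fell from 1035, 1108 and 768 to 146, 158 and 145 CPM, so that its decline was shallower with FcMR (difference 1.43, SE 0.20, adjusted p = 6.0e-04).

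Some changes were seen with FcMR and not with the isotype protein. Mamdc2 was at 51.4, 51.3 and 54.4 CPM at 4 h and 13.5, 13.01 and 13.4 CPM at 12 h with FcMR, and at 85.7, 78.1 and 76.7 and then 72.9, 82.0 and 79.5 CPM with the isotype protein (difference -1.94, SE 0.12, adjusted p = 7.7e-08). Mxd1, which encodes a partner of MAX that opposes Myc, fell with FcMR from 232, 203 and 185 to 66.8, 64.7 and 56.7 CPM and had -0.09 (SE 0.10) with the isotype protein (difference -1.63, SE 0.14, adjusted p = 5.6e-06). Ehd4, an endocytic recycling gene, and Coro2a, a coronin gene, fell with FcMR and rose with the isotype protein, at 0.26 (SE 0.08) and 0.47 (SE 0.09). Their differences in change were -1.36 (SE 0.12, adjusted p = 5.6e-06) and -1.38 (SE 0.13, adjusted p = 2.2e-05).

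Genes with the opposite sign of difference included Acp2, Cybc1, Serpinb8 and Ppp1r12b, which rose with FcMR. Acp2, lysosomal acid phosphatase, was at 174, 171 and 173 CPM at 4 h and 414, 403 and 415 CPM at 12 h with FcMR, and at 186, 197 and 198 and then 258, 254 and 265 CPM with the isotype protein (difference 0.83, SE 0.08, adjusted p = 1.7e-05). For Cybc1, which encodes a chaperone of the phagocyte oxidase, the difference was 0.82 (SE 0.09, adjusted p = 8.3e-05). It was 1.19 (SE 0.13, adjusted p = 7.2e-05) for Serpinb8 and 1.16 (SE 0.13, adjusted p = 8.3e-05) for Ppp1r12b, a myosin phosphatase subunit gene. With the authors' factors the difference for Serpinb8 was 0.66 (adjusted p = 0.051). Of the genes that rose most, Cyp1b1 (difference 1.96, SE 0.31, adjusted p = 0.0016) and Mfap3l (difference 1.72, SE 0.24, adjusted p = 5.1e-04) were called in this contrast. Gpr176 was called as well (difference 0.98), but not with RLE factors (0.94, adjusted p = 0.0705) or in several other alternatives. Susd2 (difference 0.86, SE 0.37, adjusted p = 0.21) was not.

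**Figure D5:**
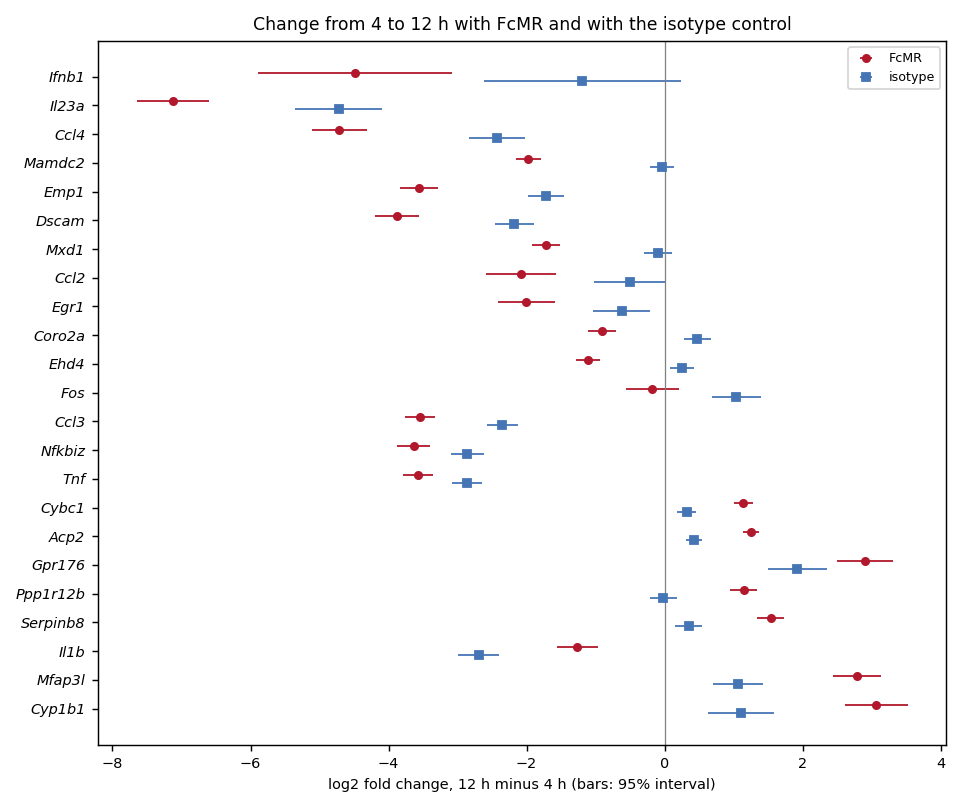
Log2 fold change from 4 to 12 h with FcMR and with the isotype control (points, with 95% intervals) for the 23 named genes whose change was called as different. Il23a and Ccl4 fall further with FcMR, Il1b falls less, and Mamdc2 and Ppp1r12b lie near 0 with the isotype control.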

How the data were processed

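Gene expression was measured in 21 libraries of 7 groups, 3 each, grouped by title. The authors deposited estimated counts per gene, made with kallisto 0.44.0 on GRCm38 per the submitters' processing notes, as whole numbers for 23250 genes, and a second table of normalized signal on a linear scale, used here only for its scaling factors. Plain counts had been assumed in the plan; the named test also fits estimated counts. Genes were named from GENCODE M21 (23187 matched).

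The fit was edgeR 4.0.16 (quasi-likelihood, R 4.3.3) over 21 libraries with a coefficient per group, TMM scaling and filterByExpr (minimum 10 counts). SEs are Wald-type. A floor of 3 counts corresponds to 0.113 to 0.558 CPM at 4 h and 0.145 to 0.262 at 12 h; such limits and the exact intervals cover counting error only. Replicates differed by more than counting noise (the smallest chi-square was 5.87 for each degree of freedom), and each library was counted separately.

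Named genes are the 10 lowest and 10 highest called protein-coding genes without overlap whose mean log2 CPM reached 1, 6 abundant held genes, 2 called members per direction of each list, 35 genes fixed by name and 4 per direction of the FcMR against isotype difference. Other list members that the text names to show a list's spread were chosen after their values were seen. The comparison and the 17 gene lists and 6 marker lists were chosen with earlier results of these data known.

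On simulated data, 80% of genes changed to 0.25-fold, 72% to 0.5-fold, 58% to 2-fold and 92% to 4-fold were called (50 genes each, 13198 tested). Alternatives were other scaling (RLE, the authors' factors), no filter or a stricter one, DESeq2 1.42.0, limma-voom (limma 3.58.1), only the libraries compared, a replicate block, GC correction, thinning and leaving out libraries. The libraries compared were the 6 of FcMR at 4 and 12 h. For the difference from the isotype they were the 4 groups of FcMR and isotype at 4 and 12 h. FcMR 12 h replicate 1 alone was added after seeing the data. Some list members are not reported here.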

Additional observations from a re-analysis of the deposited data

Results flagged for a closer look

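For 23 named genes the change from 4 to 12 h differed between FcMR and the isotype control by edgeR's interaction contrast, adjusted over 13468 genes. Values are the FcMR change minus the isotype change on the log2 scale, over 3 libraries a group. A lower change with FcMR was found for Ifnb1 (-3.30), Il23a (-2.40), Ccl4 (-2.29), Mamdc2 (-1.94), Emp1 (-1.84), Dscam (-1.70), Mxd1 (-1.63), Ccl2 (-1.58), Egr1 (-1.38), Coro2a (-1.38), Ehd4 (-1.36), Fos (-1.22), Ccl3 (-1.19), Nfkbiz (-0.78) and Tnf (-0.72). A higher change with FcMR was found for Cyp1b1 (1.96), Mfap3l (1.72), Il1b (1.43), Serpinb8 (1.19), Ppp1r12b (1.16), Gpr176 (0.98), Acp2 (0.83) and Cybc1 (0.82). Fos was held with FcMR while it rose with the isotype protein. Ifnb1 rests on few counts, with at most 3 in any FcMR library of 12 h. Not every call held in the alternatives. Gpr176 lost it in 11 of 19 (adjusted p = 0.071 to 0.15), among them leaving out 4 h replicate 1 or 3 or any library of 12 h. Ifnb1 lost it in 10 (0.065 to 0.13), among them leaving out any of the 6 FcMR libraries. Il23a (adjusted p = 0.26) and Fos (0.053) lost it after thinning, Serpinb8 with the authors' factors (0.051), and Ccl2 with replicate 1 of 12 h alone (0.095).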

How the results depend on the processing

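In 19 alternatives, no called value of the genes named by rule changed sign. The change from 4 to 12 h of Tnfrsf1b, Cxcl3, Il10 and Fos, which was not called, changed sign in at least 1, and the list member Pf4 had -0.05 with FcMR 12 h replicate 1 alone. Genes called numbered 4351 to 5915 when 1 library was left out and 2969 with FcMR 12 h replicate 1 alone (1334 lower, 1635 higher), which has fewer libraries. Genes at least 4-fold higher (174) numbered 264 without an expression filter, 157 to 280 with 1 library left out (280 without FcMR 12 h replicate 1) and 289 without both libraries out of title order. The FcMR against isotype difference (726 genes) was the least stable: 349 without a filter, 359 with only the libraries compared, 1705 with GC correction, 418 with the authors' factors, 380 after thinning, 352 to 507 with 1 library left out and 432 with replicate 1 alone. Leaving out any of the 6 FcMR libraries lowered that number, and the cause was not tested. Same-numbered libraries had deviation correlations of 0.094, 0.166 and -0.044, so the numbers were not taken to pair them; with a replicate block 5589 genes were called, and the block with GC correction gave 1903 for the difference. In 2 of 3 pairs the 4 h library correlated best with its own number. Of the calls, 46.7% were lower, against 42.2% to 54.8% in the alternatives. For named genes 2147 values kept their side of the threshold, 77 lost it and 16 gained it. Of list counts, 778 stayed within 1.5 times and 96 did not. The counts against untreated cells were made in the first fit only.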
